A study of Mus musculus with 6 samples.

Results

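The cytosolic ribosomal protein genes encode the proteins of the ribosome's large (60S) and small (40S) subunits. They were taken by symbol from a gene table of RNA-seq values: every Rpl or Rps symbol of the usual form, plus Rpsa, Rplp0, Rplp1 and Rplp2, without the Rps6k kinase genes and without rows named as pseudogenes. The rule gave 89 of 16108 genes. Of these, 43 encode large subunit proteins, 31 encode small subunit proteins and 3 encode the P-stalk proteins of the large subunit, and these 77 are called core genes below. A further 11 are paralogs or copies of a subunit gene, and Rps19bp1, which encodes a binding partner of RPS19, is no ribosomal subunit but has a symbol of the same form. The series measured RNA from RAW264.7 cells, a mouse macrophage-like line, that were left overnight to attach to acoustic devices and then kept there for 48 h. In the acoustics-off group the devices stayed off. In the acoustics-on group they ran at 5 kHz and 18 V (peak to peak), and each group has 3 libraries. Cells grown on petri dishes, which the design text also lists, were not analysed here. The labels give 1 cell line and do not say whether the libraries of a group came from separate cultures, so every p-value here measures only how far these samples scatter, and that scatter may be technical.

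Each ribosome carries nearly every ribosomal protein in a single copy, so cells make these proteins in matched amounts, and their mRNAs are among the most abundant in growing cells. In mammals these mRNAs are short and typically start with a C followed by a run of C and T, the 5′ terminal oligopyrimidine tract. Through this tract the kinase complex mTORC1 and the RNA-binding protein LARP1 control the translation and storage of the mRNAs. Macrophages adjust ribosomal output when they are activated, and several ribosomal proteins have roles of their own outside the ribosome, RPL13A in transcript-selective translational silencing after interferon and RPS3 in NF-kB binding among them.

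The sequences around the start sites show the tract and how exactly it sits on the annotated start. RefSeq start regions (GRCm38.p6) were matched by symbol for 66 of the 89 genes. A C at the annotated start followed by at least 4 C or T was found in 15 of the 66 (22.7%), against 3.01% of 27025 genes in the same table. A run of at least 8 C or T between 40 bases before and 20 bases after the start was found in 36 (54.5%), against 27.2% of all genes. The windows below run over those 60 bases on the gene's own strand, 5′ to 3′. Capitals mark the longest run of C and T, or the first of equal runs, as in Rps27l and Rpl36al. The first base of the run is placed relative to the annotated start base. The first 5 genes are shown because their tract includes the annotated start. They are Rps6 (chr4:86857348-86857407, minus strand), Rpl28 (chr7:4792925-4792984, plus), Rpl38 (chr11:114668540-114668599, plus), Rplp2 (chr7:141447611-141447670, plus) and Rps27 (chr3:90213629-90213688, minus).
Rps6: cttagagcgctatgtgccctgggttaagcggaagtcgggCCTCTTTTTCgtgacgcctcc
Rpl28: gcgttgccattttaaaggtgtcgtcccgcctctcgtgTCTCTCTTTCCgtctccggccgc
Rpl38: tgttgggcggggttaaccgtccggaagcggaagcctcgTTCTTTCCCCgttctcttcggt
Rplp2: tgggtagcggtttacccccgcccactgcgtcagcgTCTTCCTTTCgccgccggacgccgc
Rps27: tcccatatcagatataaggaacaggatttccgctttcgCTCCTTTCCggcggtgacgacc
The next 3 are shown because a long run lies near the annotated start but not on it. In Rpl5 (chr5:107900488-107900547, plus) and Rpl4 (chr9:64173347-64173406, plus) it begins at position -20 and at position -18. In Rpl13a (chr7:45128726-45128785, minus) it begins at position 3, with the start base as position 1.
Rpl5: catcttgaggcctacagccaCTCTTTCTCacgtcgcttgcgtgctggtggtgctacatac
Rpl4: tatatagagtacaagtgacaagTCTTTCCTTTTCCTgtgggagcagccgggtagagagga
Rpl13a: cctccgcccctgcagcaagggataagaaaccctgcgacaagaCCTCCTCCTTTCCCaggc
The last 3 belong to paralogs that stood apart from the subunit genes in their values, Rps27l (chr9:66946046-66946105, plus), Rpl22l1 (chr3:28805468-28805527, plus) and Rpl36al (chr12:69184048-69184107, minus).
Rps27l: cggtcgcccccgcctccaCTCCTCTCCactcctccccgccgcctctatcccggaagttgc
Rpl22l1: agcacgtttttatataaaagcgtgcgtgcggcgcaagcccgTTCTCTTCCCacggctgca
Rpl36al: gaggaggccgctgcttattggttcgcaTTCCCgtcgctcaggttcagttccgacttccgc
In these windows the longest run held 9 bases in Rps27l and 10 in Rpl22l1 but 5 in Rpl36al. Rps27l has another annotated start, not shown (window chr9:66946373-66946432, plus), where the longest run held 5 bases. Annotated starts can differ from the start used in these cells, so a missing match says only that these letters are not in the window.

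The values are FPKM (fragments per kilobase of transcript, scaled to library size), which compare levels between genes per length. The authors' deposited mean normalised counts sum to 45300000 over all genes. The core genes were counted deeply: their mean count ran from 11919 for Rpl38 to 132681 for Rps3a1, apart from Rps12 with 23, and counting error alone is a coefficient of variation of at most 0.92% in that range. Relative depth, read from the steps of the low values, lay between 0.96 and 1.07. All 10 macrophage markers listed for the line passed the filter on low values described below. Their summed level was 28350 to 30580 FPKM with acoustics off and 20090 to 27040 with acoustics on, and 0 of the 10 passed the test as deposited. Their median difference was -0.45 (log2, on minus off), and in 7 of the 10 the acoustics-on values lay wholly below the acoustics-off values, as in 17.7% of all genes. The median marker was lowest in replicate 1 of the acoustics-on group, at -0.75 against the acoustics-off mean, and stood at -0.15 and -0.48 in replicates 2 and 3, so its order across libraries was not that of the ribosomal protein genes given below, and the markers' part in the ribosomal protein values was not tested. Of 10 markers of other cell types, 4 were in the table, and their summed level was at most 1.87 FPKM in any library.

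Ribosomal protein mRNAs were a large part of all FPKM in these cells, and a smaller part in each acoustics-on library than in any acoustics-off library. The share was 24.51%, 25.31% and 24.85% in acoustics-off replicates 1, 2 and 3. It was 23.54%, 21.97% and 17.32% in acoustics-on replicates 1, 2 and 3. The means were 24.89% ± 0.40 and 20.94% ± 3.24 (SD, n = 3 each), so the groups did not overlap, and most of the spread with acoustics on came from replicate 3. The summed FPKM of these genes was 204200 to 208900 in the acoustics-off libraries and 235600, 181000 and 124100 in acoustics-on replicates 1, 2 and 3. The total over all genes was 821800 to 840700 off and 1001000, 824100 and 716500 on. In replicate 1, therefore, the genes' summed level lay above that of every acoustics-off library, and its total over all genes was higher by a larger proportion. In bulk RNA, a change in the mix of cells and a change in the RNA of each cell cannot be told apart.

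Differences are given below on the log2(FPKM + 1) scale, on minus off, and tests are limma's with Benjamini-Hochberg adjustment over 11664 genes that had at least 0.5 FPKM in at least 3 libraries. Of the 89 genes 88 passed that filter, all but Rpl3l, and 0 passed an adjusted p of 0.05 in either direction. Of all genes tested, 1.5% were called higher and 0.574% lower. At an unadjusted p under 0.05 the counts were 4 lower (Rpl5, Rpl29, Rpl4 and Rpl32l) and 0 higher, against 9.16% lower and 10.5% higher of all genes. The values for acoustics on lay wholly below those for acoustics off in 11 genes and wholly above them in 1, Rps27l. Over all genes these shares were 17.7% and 17.1%, so 11 of 88 is under the background. The median difference of the 88 genes was -0.25, against -0.03 for all genes tested. The difference was negative in 84 of them and positive in Rps27l, Rps19bp1, Rpl36al and Rpl22l1.

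**Figure D1:**
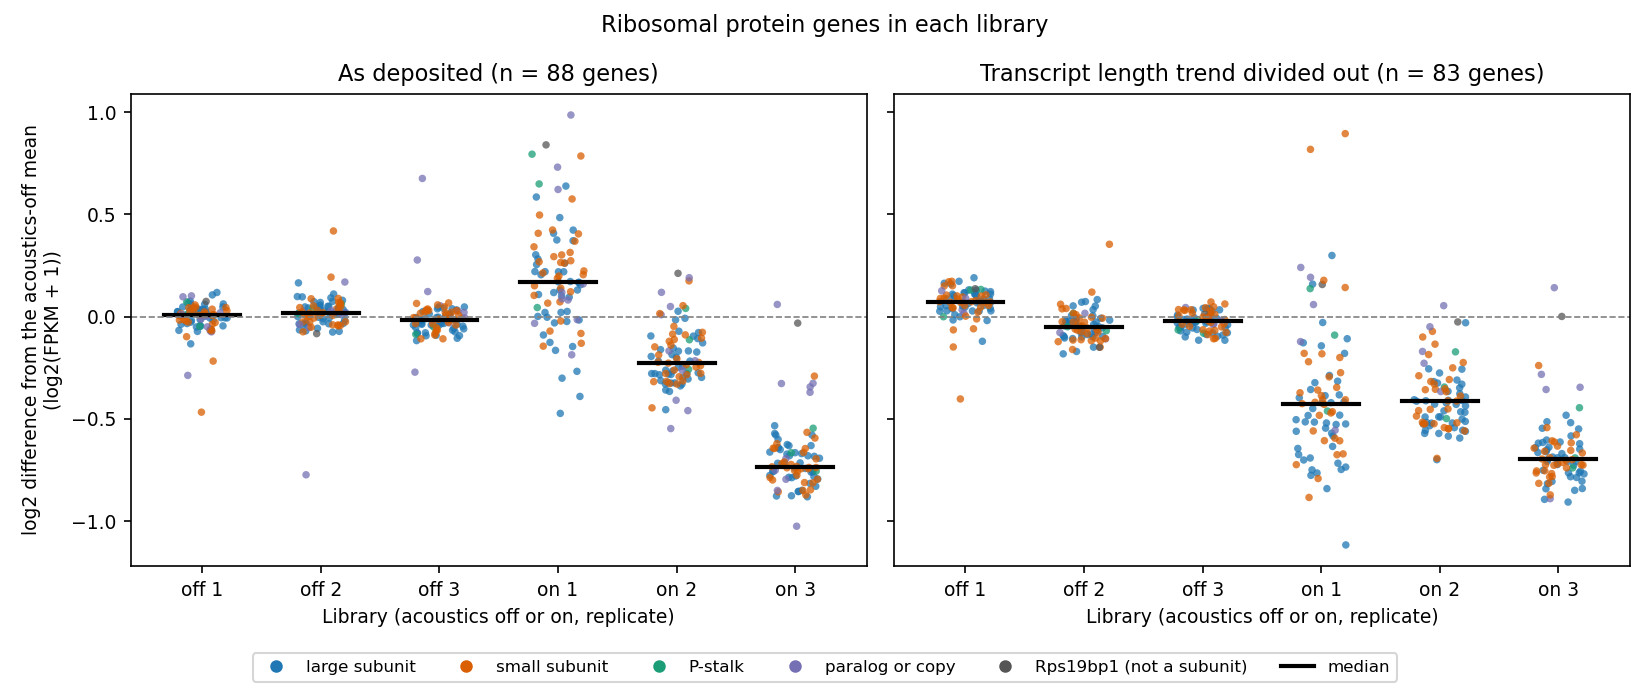
Each point is a ribosomal protein gene in a library, as its log2(FPKM + 1) minus the mean of the acoustics-off libraries (for an acoustics-off library, of the other two); black bars are medians, colours are roles, and the right panel has the transcript length trend of each library divided out. As deposited, the medians of the acoustics-on libraries lie at 0.17, -0.23 and -0.73, and with the trend divided out at -0.42, -0.41 and -0.70.

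The acoustics-on libraries disagreed with each other by more than they differed as a group from the acoustics-off libraries, and they did so for nearly every gene together. Against the acoustics-off mean, the median gene lay at 0.17 in acoustics-on replicate 1, at -0.23 in replicate 2 and at -0.73 in replicate 3. The acoustics-off libraries, each against the other two, lay at 0.01, 0.02 and -0.01. Replicate 1 was the highest of the 3 acoustics-on libraries and replicate 3 the lowest in 79 of the 88 genes. Replicate 3 was the lowest of all 6 libraries in 84, and replicate 1 the highest of all 6 in 63.

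Counted library by library, replicate 1 lay below every acoustics-off library in 12 genes, where 46.8% of all genes tested did so, and above every one in 64 (43.1% of all genes). In replicate 2, 74 genes lay below (39.1% of all genes) and 6 above (38.4%). In replicate 3, 85 lay below (38.8%) and 1 above (37.1%), the latter being Rps27l. Within a library the genes lay together: the SD of their differences was 0.27, 0.15 and 0.17 in the acoustics-on libraries. With acoustics-on replicate 3 left out the median difference was -0.02, and with replicate 1 left out it was -0.47. In the latter fit 2 genes fell (3.11% of all genes were called lower), the large subunit gene Rpl30 (-0.54, adjusted p = 0.046) and the Rpl37 copy Rpl37rt (-0.63, adjusted p = 0.029).

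Among large subunit genes the median difference was -0.29 (43 genes, all negative, from -0.49 to -0.05, none past the threshold). Of these 43, 8 had groups that did not overlap, with acoustics on lower, where 17.7% of all genes did so. The proteins of Rpl5 and Rpl11 form, with the 5S ribosomal RNA, a particle that joins the large subunit and that also binds the p53 regulator MDM2. Rpl5 (chromosome 5, 107900502 to 107909005, plus strand, GRCm38, 8 exons) was at 2636, 2693 and 2750 FPKM with acoustics off and at 1940, 2220 and 1641 FPKM with acoustics on. Each acoustics-on library lay below all acoustics-off libraries. The difference was -0.49 (SE 0.18, adjusted p = 0.21), the most negative of all 88 genes. Rpl11 (chromosome 4, 136028265 to 136053428, minus strand) lay above the acoustics-off level in replicate 1, with 2941, 3070 and 2889 FPKM off and 3453, 2823 and 1773 FPKM on. Its groups overlapped (difference -0.20, SE 0.27, adjusted p = 0.66).

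Rpl3, Rpl4 and Rpl7 encode proteins that join the large subunit early in its assembly. Rpl3 (chromosome 15, 80077791 to 80091868, minus strand) was at 2357, 2346 and 2345 FPKM off and at 1952, 1938 and 1335 FPKM on. The acoustics-off libraries lay very close together, and every acoustics-on library lay lower (-0.45, SE 0.20, adjusted p = 0.27). The pseudogene row Rpl3-ps1 had a mean of 1359 FPKM over the libraries and a difference of -0.49 (adjusted p = 0.22). How reads were divided between it and Rpl3 was not tested. Rpl4 (chromosome 9, 64173375 to 64178666, plus strand) was at 2334, 2204 and 2252 FPKM off and at 1837, 1832 and 1515 FPKM on (-0.39, SE 0.17, adjusted p = 0.25). Rpl7 was at 1770, 1761 and 1813 FPKM off and at 1589, 1418 and 1054 FPKM on (-0.42, SE 0.20, adjusted p = 0.29). Both had groups that did not overlap, with acoustics-on replicate 3 the lowest. Rpl29, whose protein is also known to bind heparin, was at 763.4, 770.6 and 719.1 FPKM off and at 572.7, 634.2 and 495.0 on, again without overlap (-0.41, SE 0.16, adjusted p = 0.22).

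In most other large subunit genes the groups overlapped. Rpl23, whose protein also binds MDM2, was at 1994, 2001 and 1952 FPKM off and at 2151, 1586 and 1250 on (-0.29, SE 0.23, adjusted p = 0.47). Rpl13a, the silencing factor named above, was at 5386, 5788 and 5334 FPKM off and at 5168, 5151 and 3041 on, so its groups just failed to overlap (-0.35, SE 0.25, adjusted p = 0.44). With Rpl32, Rpl18 and Rps14, Rpl13a was among the genes with the highest mean FPKM. Rpl41, which encodes a very short basic peptide of the subunit, had the largest standard error of the large subunit genes, with 3392, 3785 and 3359 FPKM off and 5459, 3469 and 2044 on. Its mean was 3512 ± 237 FPKM off and 3657 ± 1715 on (SD, n = 3 each; difference -0.05, SE 0.35, adjusted p = 0.94).

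**Figure D2:**
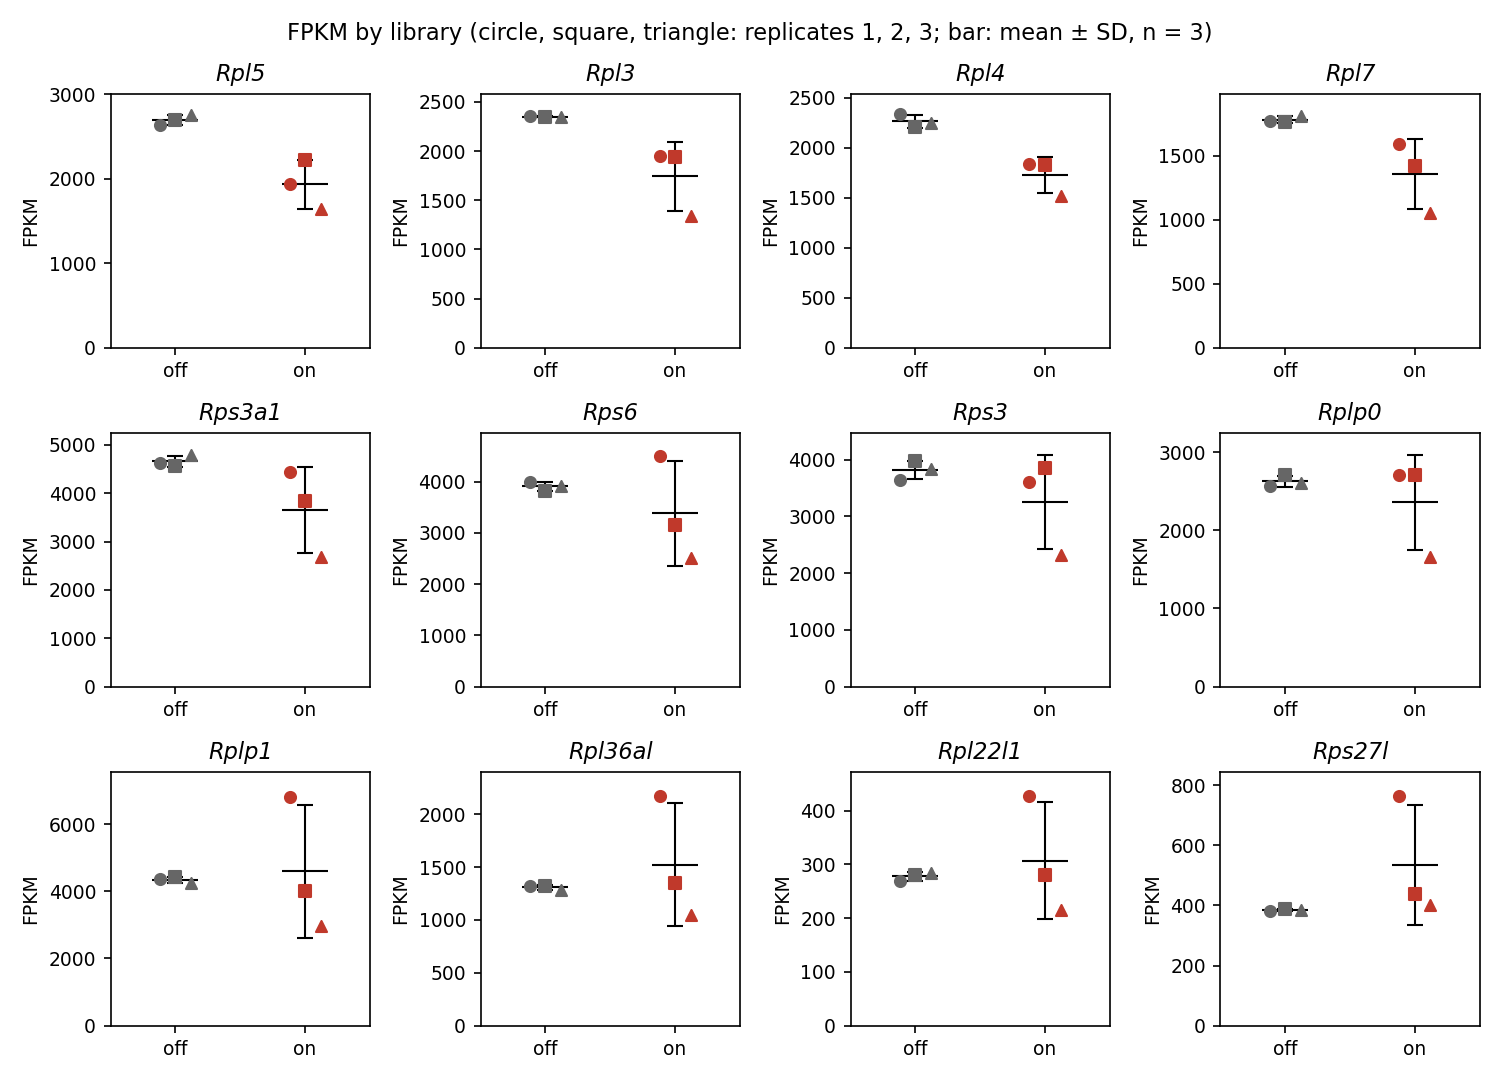
FPKM of 12 genes in each library, with the mean and SD of each group (n = 3) and the replicates as circle, square and triangle; every axis starts at 0. The acoustics-on points of Rpl5, Rpl3, Rpl4, Rpl7 and Rps3a1 lie below all acoustics-off points, those of Rps27l above them, and in the remaining genes the groups overlap.

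Small subunit genes had a median difference of -0.25 (31 genes, all negative, from -0.38 to -0.06, none past the threshold). Of these 31, 3 had groups that did not overlap, with acoustics on lower, where 17.7% of all genes did so. Rps3a1 (chromosome 3, 86137940 to 86142702, minus strand), a protein near the mRNA exit of the subunit, had the most negative value of the set. It was at 4630, 4569 and 4787 FPKM off and at 4439, 3830 and 2680 on (-0.38, SE 0.23, adjusted p = 0.36), with no overlap. Rps6, the subunit protein that S6 kinases phosphorylate, was at 3993, 3819 and 3924 FPKM off and at 4509, 3147 and 2502 on. Replicate 1 lay above and replicates 2 and 3 below all acoustics-off libraries (-0.25, SE 0.25, adjusted p = 0.55). Rps3, which lies at the mRNA entry and also binds NF-kB, was at 3648, 3977 and 3832 FPKM off and at 3606, 3857 and 2319 on (-0.26, SE 0.24, adjusted p = 0.52). Only its replicate 3 value stood well apart.

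Rps19, a gene mutated in Diamond-Blackfan anaemia, averaged 3411 ± 156 FPKM off and 2983 ± 1064 on (adjusted p = 0.59). Rps27a, which is made as a fusion with ubiquitin, averaged 3682 ± 61.2 and 3214 ± 1274 FPKM (adjusted p = 0.59). Rpsa, also known as the laminin receptor, averaged 2178 ± 57.6 and 2110 ± 740 FPKM (adjusted p = 0.83; SD, n = 3 each). Rps2 was at 594.8, 601.4 and 554.8 FPKM off and at 1006, 498.2 and 349.2 on, and its replicate 1 value was 0.79 above the acoustics-off mean. The processed pseudogene row Rps2-ps10 had a higher level, with a mean of 2855 FPKM over the libraries, and how reads were divided between these rows was not tested. Rps12 was at only 1.5, 2.76 and 2.17 FPKM off and 2.56, 1.62 and 1.54 on, with a mean count of 23 and a counting coefficient of variation of 21.0%. Its values and those of other genes with near-identical copies depend on how the authors' counting divided shared reads, and Rps12-ps3 stood at 39.3 FPKM.

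The P-stalk is the arm of the large subunit that recruits elongation factors, with RPLP0 as its base and RPLP1 and RPLP2 as paired tips. In acoustics-on replicate 1 its genes had a median of 0.65 above the acoustics-off mean, against 0.13 for the large and 0.22 for the small subunit genes. Rplp0 was at 2571, 2704 and 2609 FPKM off and at 2710, 2702 and 1657 on (-0.19, SE 0.23, adjusted p = 0.63). Rplp1 was at 4359, 4418 and 4237 FPKM off and at 6801, 4011 and 2972 on (0.00, SE 0.31, adjusted p = 1.00). Rplp2 was at 1319, 1284 and 1226 FPKM off and at 2213, 1067 and 756 on (-0.07, SE 0.37, adjusted p = 0.92). All 3 had overlapping groups. In replicate 1 the tips lay 0.65 and 0.79 above the acoustics-off mean and the base 0.04 above it.

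**Figure D3:**
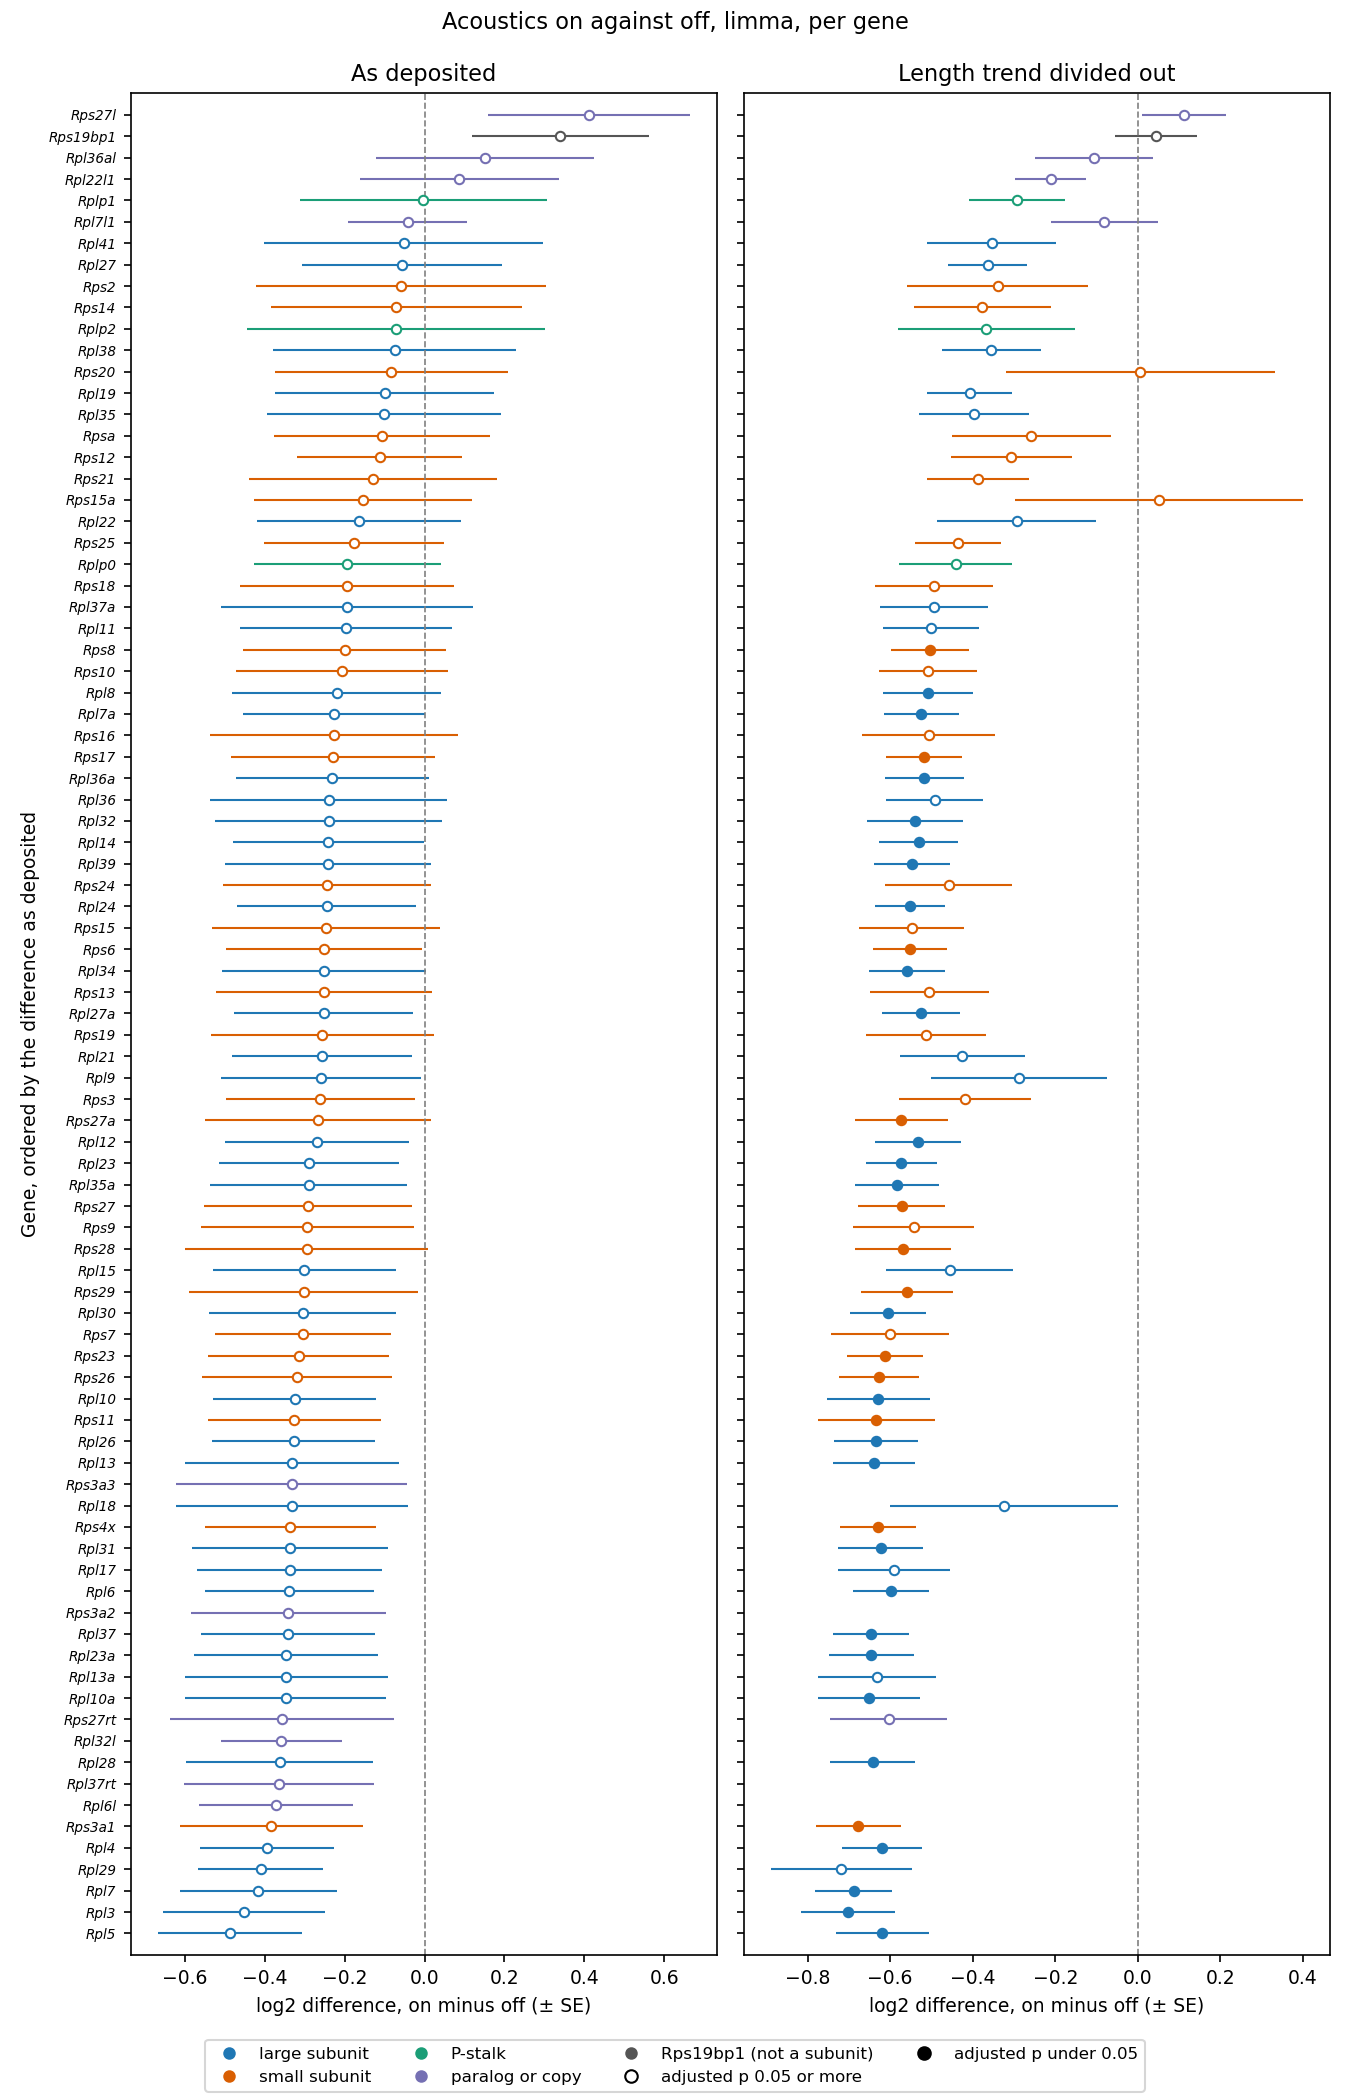
Difference (log2, on minus off) with its standard error for the tested genes named on the axis, ordered by the value as deposited (left, no filled points) and with the transcript length trend divided out (right); filled points have a limma adjusted p under 0.05. On the right the large subunit genes lie between -0.72 and -0.29, and Rps27l, Rps15a, Rps20 and Rps19bp1 are the 4 above 0.

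A trend with transcript length ran through the libraries, and these genes are short. An effective length, taken from the authors' mean count and the mean FPKM of each gene, had a median of 441 nt for the 77 core genes and 2020 nt for 11576 other genes tested. Among other protein-coding genes, the shortest quintile (annotated length up to 1740 nt, 2019 genes) had a median difference of 0.60, 0.21 and 0.01 in acoustics-on replicates 1, 2 and 3. The longest quintile had -0.59, -0.20 and 0.01. Across 10369 other genes the rank correlation of difference with effective length was -0.60, -0.50 and 0.01 in these libraries, and 0.28, -0.34 and 0.04 in the acoustics-off libraries. The genes of a library are not independent, so these correlations are descriptions. Set beside that shortest quintile, the ribosomal protein genes were lower in each acoustics-on library: 0.17 against 0.60, -0.23 against 0.21, and -0.73 against 0.01. The quintile was chosen by annotated length and was not matched to them gene by gene. Within the 77 core genes the same correlation was -0.41, -0.12 and 0.17.

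**Figure D4:**
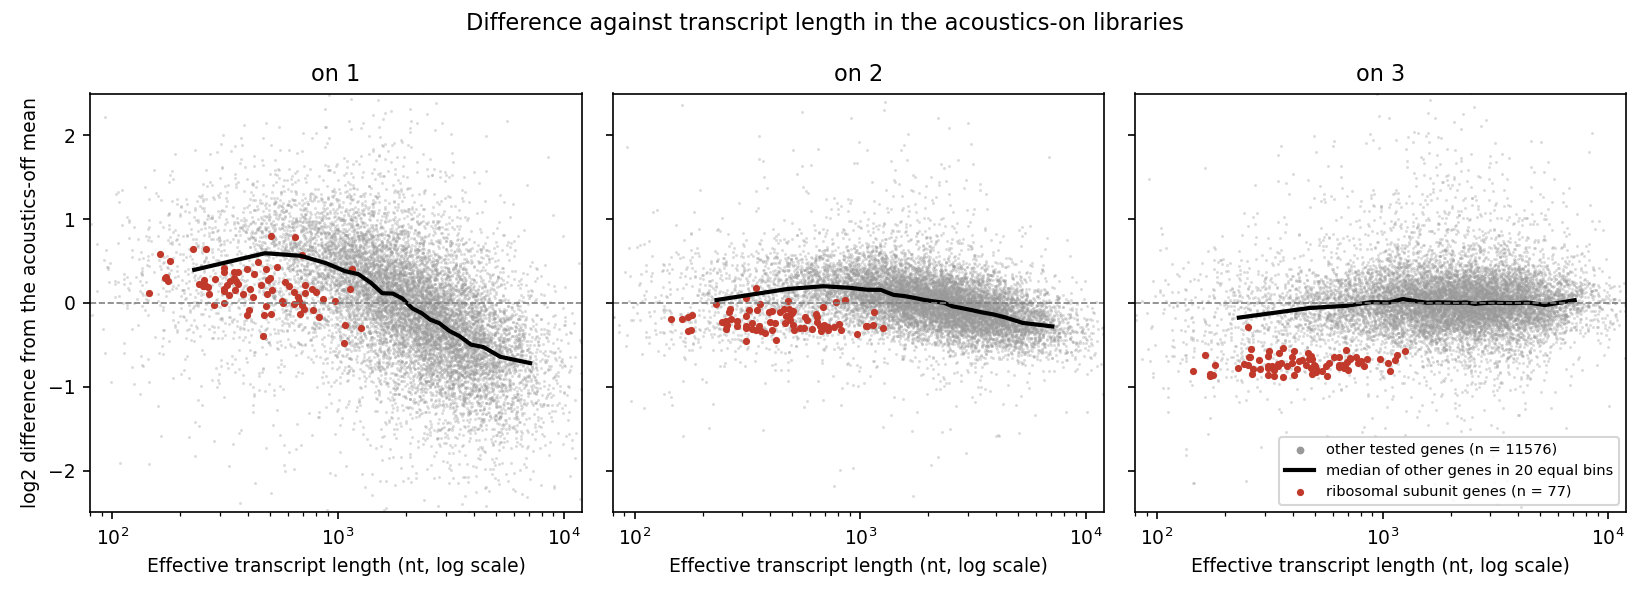
Difference from the acoustics-off mean (log2) against effective transcript length (log axis) in each acoustics-on library, with other tested genes in grey, their median in 20 equal bins in black and the 77 core ribosomal protein genes in red. The red points lie mostly under the black line in replicates 1 and 2 and wholly under it, at a median near -0.73, in replicate 3, where the line is nearly flat.

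When each library's loess trend on annotated transcript length was divided out, 40 of 83 ribosomal protein genes with an annotated length fell and 0 rose (limma, adjusted p under 0.05 over 10452 genes). Of all genes tested this way, 2.77% were called lower and 3.08% higher. The median difference was -0.52, against -0.02 for all genes. The groups did not overlap, with acoustics on lower, in 69 of the 83, where 20.7% of all genes did so, and lay higher without overlap in 0 (16.4% of all genes). The 40 genes were 27 of the large subunit and 13 of the small, 0 of the stalk and 0 of the copies, with differences from -0.70 (Rpl3) to -0.50. The acoustics-on libraries now stood closer together, with medians of -0.42, -0.41 and -0.70, while the acoustics-off libraries stood at 0.07, -0.05 and -0.02. Over only the genes with an annotated length, the share of summed FPKM was 27.81% ± 0.40 off and 21.60% ± 1.56 on (SD, n = 3 each). The share given earlier was taken over all 16108 genes, so these shares are not directly comparable. In the same fit the 10 macrophage markers had a median of -0.54, near that of the ribosomal protein genes, and of -0.86, -0.30 and -0.50 in the acoustics-on libraries. Of these markers 1 fell, Csf1r, the receptor for the macrophage growth factor CSF1 (-0.67, adjusted p = 0.034), and 0 rose.

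After this correction Rpl3 was at 2409, 2296 and 2344 FPKM off and at 1372, 1672 and 1312 on (-0.70, SE 0.11, adjusted p = 0.020). Rpl7 was at 1813, 1718 and 1814 off and at 1061, 1212 and 1049 on (-0.69, SE 0.09, adjusted p = 0.013). Every acoustics-on library lay well below every acoustics-off library in both. Rps6 was at 4109, 3703 and 3933 off and at 2800, 2656 and 2551 on (-0.55, SE 0.09, adjusted p = 0.021), so replicate 1 then lay beside the other two. Rpl5 (-0.62, adjusted p = 0.028), Rpl23 (-0.57, adjusted p = 0.019), Rps3a1 (-0.68, adjusted p = 0.019) and Rps4x (-0.63, adjusted p = 0.018) also fell. Rpl11 missed the threshold (-0.50, SE 0.12, adjusted p = 0.054), as did Rpl13a (-0.63, SE 0.14, adjusted p = 0.051), Rps3 (-0.42, SE 0.16, adjusted p = 0.17) and Rplp0 (-0.44, SE 0.14, adjusted p = 0.11).

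The corrected count depended on acoustics-on replicate 3. Without it 12 genes fell, all of them among the 40, and they included Rpl6, Rpl7, Rpl13, Rpl23, Rpl24, Rpl28, Rpl34, Rpl37, Rps3a1, Rps4x and Rps23. The median difference was then -0.44 (0.459% of all genes were called lower). Without replicate 1 or replicate 2, 67 and 55 genes fell (6.99% and 6.38% of all genes), with all 40 among them each time. Rps15a and Rps20 stayed apart at 0.05 and 0.01. Their longest annotated transcripts are 5179 and 3706 nt, while their effective lengths were 397 and 689 nt, and with the effective length in the correction they lay at -0.46 and -0.36. With that length, an alternative chosen after seeing the data, 52 of 88 genes fell, 37 of them among the 40 (2.96% of all genes were called lower). With GC content added to the trend 42 fell (2.94% of all genes), and with the trend fitted without the ribosomal protein genes 46 fell (2.87%), also alternatives chosen after seeing the data.

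Paralogs were compared with their parent genes as shares of each pair's FPKM. RPS27L is a close relative of RPS27 and is known as a p53-induced gene. Rps27l (chromosome 9, 66946086 to 66949516, plus strand) was at 382.8, 388.1 and 383.7 FPKM off and at 763.1, 439.3 and 401.2 on, the only gene of the set whose acoustics-on values lay wholly above (0.41, SE 0.25, adjusted p = 0.38). With the length trend divided out the difference was 0.11 (adjusted p = 0.52) and its groups overlapped, and without acoustics-on replicate 1, as deposited, it was 0.13 (adjusted p = 0.42). The parent Rps27 averaged 3840 ± 114 FPKM off and 3246 ± 1000 on. As a share of the pair, Rps27l made up 9.32%, 9.18% and 8.84% off and 15.4%, 11.5% and 15.5% on.

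Rpl36al, an intronless copy of Rpl36a, was at 1319, 1319 and 1284 FPKM off and at 2170, 1353 and 1043 on (0.15, SE 0.27, adjusted p = 0.75). Its share of the pair was 38.1%, 39.5% and 38.0% off and 47.2%, 43.7% and 43.9% on. Rpl22l1, a paralog of Rpl22 that can replace it in ribosomes, was at 268.3, 280.4 and 284.6 FPKM off and at 427.8, 279.5 and 214.7 on (0.09, SE 0.25, adjusted p = 0.85). Its share was 16.2%, 17.8% and 17.4% off and 19.7%, 20.4% and 19.2% on. Rpl7l1, which acts in large subunit assembly, was at 45.9, 46.4 and 45.1 FPKM off and at 48.5, 49.8 and 36.3 on, and its share with Rpl7 went from 2.51% ± 0.07 to 3.23% ± 0.23.

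In these 4 pairs every acoustics-on share lay above every acoustics-off share, as the plot of shares by library shows. The differences were 5.04, 6.44, 2.62 and 0.72 percentage points for Rps27l, Rpl36al, Rpl22l1 and Rpl7l1. An exact two-sided permutation test gave p = 0.1 in each, the smallest that 3 against 3 libraries allow, and 0.125 after Benjamini-Hochberg adjustment over 5 pairs. The remaining pair, Rpl3l with Rpl3, overlapped (exact permutation p = 0.7), and Rpl3l, a muscle gene, was at most 0.41 FPKM in any library. Effective lengths of paralog and parent were 262 and 145 nt for Rps27l and Rps27, 287 and 258 nt for Rpl36al and Rpl36a, and 294 and 313 nt for Rpl22l1 and Rpl22. They were 2350 and 825 nt for Rpl7l1 and Rpl7. The shares were also computed from length-corrected FPKM, an alternative chosen after seeing the data. With annotated length in the correction, the groups still did not overlap for Rps27l, Rpl36al and Rpl7l1, with differences of 4.86, 6.92 and 1.28 percentage points (exact permutation p = 0.1 in each). For Rpl22l1 they overlapped, with 16.7%, 17.3% and 17.4% off and 14.5%, 19.2% and 20.6% on (0.98 percentage points, exact permutation p = 0.7). With effective length in its place, the differences were 4.46, 6.32, 1.44 and, for Rpl22l1, 2.65 percentage points, and none of the 4 pairs overlapped. The longest annotated transcript of Rpl22 is 2051 nt, against its effective length of 313 nt.

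**Figure D5:**
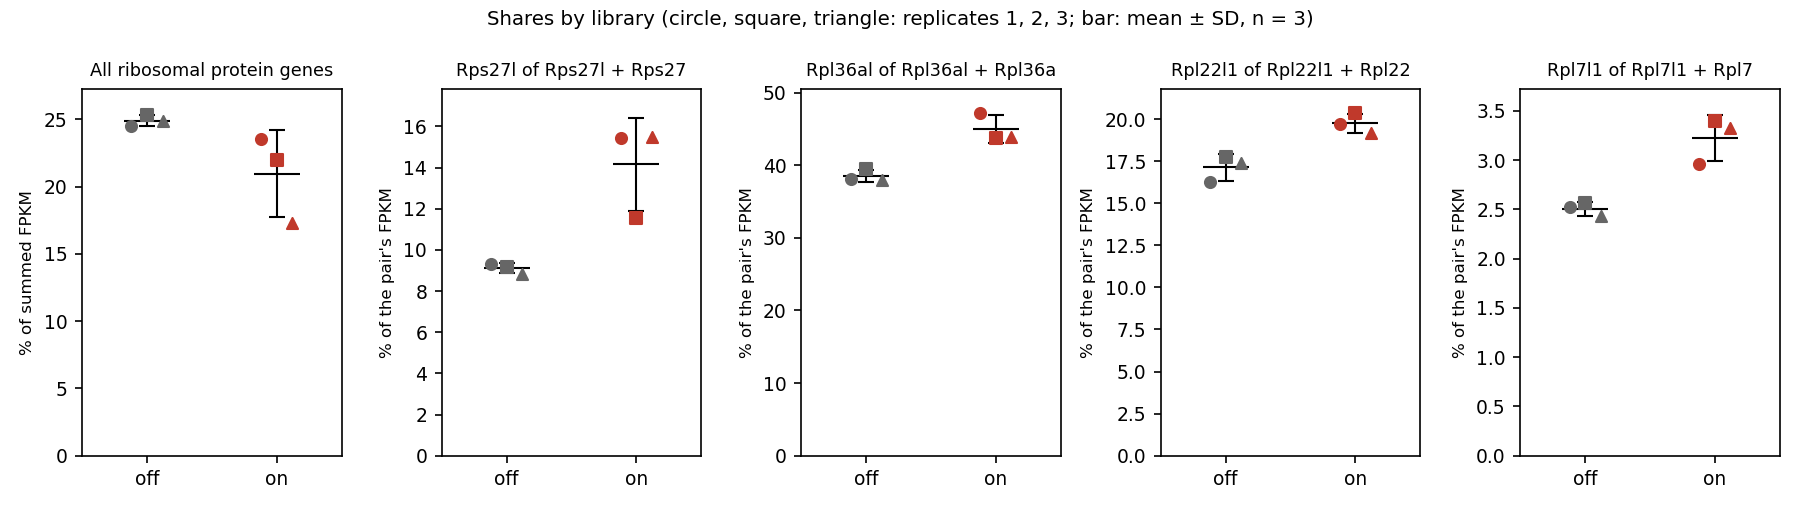
Share of summed FPKM held by all ribosomal protein genes, and share of each paralog in the FPKM of its pair, by library, with mean and SD (n = 3) and axes from 0. As deposited, all acoustics-on points lie below the acoustics-off points in the first panel and above them in the 4 paralog panels.

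Rps19bp1, the gene taken by its symbol that encodes no subunit, was at 28.8, 26.7 and 27.9 FPKM off and at 50.5, 32.3 and 27.1 on (0.34, SE 0.22, adjusted p = 0.40). The copies Rps3a2, Rpl6l, Rpl37rt, Rps27rt, Rpl32l and Rps3a3, whose rows resemble a parent gene, had differences from -0.37 to -0.33, and their parents from -0.38 to -0.24. Rps3a2 held 13.65% ± 0.16 of its pair with Rps3a1 off and 14.02% ± 0.89 on, and these overlapped. Rows named as ribosomal protein pseudogenes numbered 102, of which 68 were tested. Their median difference was -0.22, with 0.19, -0.24 and -0.66 in the acoustics-on libraries, close to the values of the genes themselves. Of the 68, 0 were called higher (1.5% of all genes) and 1 lower (0.574%). The latter was Rpl30-ps10 (-1.73, adjusted p = 0.026, named after its value was seen). They held 1.00% ± 0.01 of summed FPKM off and 0.82% ± 0.11 on. When these rows were added to the genes of the same name, 0 genes passed as deposited (0.569% of all genes were called lower) and 41 fell with the length trend divided out (2.79%).

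The median difference varied little with the sequence features of the start regions. Among the 57 matched core genes, the 13 with a C and a pyrimidine run exactly at the start had a median of -0.21, and the other 44 had -0.26. With the length trend divided out these were -0.49 and -0.54. The core ETS-type motif CCGGAAG, searched on both strands over 300 bases, was in 25 of 66 genes (37.9%, against 9.93% of all genes), and the medians of core genes with and without it were -0.23 and -0.26. The GC box GGGCGG was in 40 (60.6%, against 38.2%), with medians of -0.25 and -0.26. The YY1-type motif AAGATGGCG was in 4, Rpl13a, Rpl35a, Rpl7l1 and Rps27 (6.06%, against 1.64%). A match is a description of letters and not of a bound site.

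Genes that work with the ribosomal proteins were taken from lists of ribosome parts, translation factors, their regulators and mitochondrial ribosomal proteins. As deposited, 0 genes of any of these lists passed. Fau encodes RPS30 as a fusion with a ubiquitin-like protein, and Rack1 encodes a scaffold on the small subunit. Fau was at 3687, 3797 and 3431 FPKM off and at 3993, 3167 and 1856 on, so replicate 1 lay above and replicates 2 and 3 below all acoustics-off libraries. With the length trend divided out, Fau fell (-0.65, adjusted p = 0.041) and Rack1 did not pass (-0.49, adjusted p = 0.12).

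A list of 26 genes held translation factors and other genes linked to the terminal oligopyrimidine tract, and their own tracts were not examined here. Their median difference was -0.19, and -0.30 with the length trend divided out. With the trend divided out, 7 fell and 0 rose (2.77% of all genes were called lower and 3.08% higher). These were Eef2, Eif4b, Tpt1, Eif3e, Eif3k, Eif3l and Eif3m. Eef2, the elongation factor that moves the ribosome along the mRNA, was at 3227, 2866 and 2847 FPKM off and at 2008, 1994 and 2089 on (-0.53 corrected, SE 0.09, adjusted p = 0.027). Eif4b, which helps unwind mRNA for initiation, averaged 421 ± 15.4 and 266 ± 22.6 FPKM (-0.56 corrected, SE 0.09, adjusted p = 0.020). In Eef2 the acoustics-on libraries lay close together and below all acoustics-off libraries as deposited too, though it did not pass there (-0.55, adjusted p = 0.15).

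Of 17 genes of the mTORC1 and LARP1 axis, the median was -0.08 as deposited and 0.00 with the correction. As deposited, the acoustics-on values lay wholly above in 4 (17.1% of all genes), Eif4ebp1, Tsc2, Rheb and Rps6kb2. They lay wholly below in 3 (17.7%), Deptor, Ddit4 and Eif4ebp2. Rheb (0.34, adjusted p = 0.21), Rps6kb2 (0.34, adjusted p = 0.20) and Deptor (-0.81, adjusted p = 0.063) did not pass. Eif4ebp1, a repressor of cap-dependent initiation, was at 66.5, 65.3 and 62.0 FPKM off and at 206, 80.9 and 103 on, without overlap (0.88, adjusted p = 0.21). Tsc2, which encodes an inhibitor of mTORC1 signalling, also lay wholly above, at a low level of 0.57 ± 0.17 FPKM off and 1.61 ± 0.52 on (0.72, adjusted p = 0.099). With the correction 0 of the 17 rose (3.08% of all genes) and 2 fell (2.77% of all genes): Ddit4, which encodes the mTORC1 inhibitor REDD1 (-0.79, adjusted p = 0.019), and Eif4ebp2, a relative of Eif4ebp1 (-0.49, adjusted p = 0.031). Mtor averaged 18.2 ± 0.41 and 17.2 ± 1.8 FPKM (adjusted p = 0.70), and Larp1 33.5 ± 2.47 and 30.9 ± 5.95 (adjusted p = 0.65). Of 7 genes linked to transcription of ribosomal protein genes, 0 passed under either form. As deposited, the acoustics-on values lay wholly above in 1, Myc (17.1% of all genes), and wholly below in 2, Gabpa and Yy1 (17.7%). Gabpa had a difference of -0.59 (adjusted p = 0.29) and Yy1 of -0.28 (adjusted p = 0.31). Myc, which drives ribosome production, was at 1.95, 2.76 and 2.53 FPKM off and at 8.41, 3.97 and 8.21 on, without overlap (1.15, SE 0.27, adjusted p = 0.089; 1.09 corrected, adjusted p = 0.059).

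Mitochondrial ribosomal protein genes, whose products form the separate ribosome of the mitochondrion, had a positive median. Their median over 77 genes was 0.35 as deposited, with 0.76, 0.23 and 0.04 in the acoustics-on libraries. As deposited, the acoustics-on values lay wholly above in 29 of the 77 (17.1% of all genes) and wholly below in 1 (17.7%). With the length trend divided out the median was 0.14. In that fit 1 rose (Mrpl53, 0.61, adjusted p = 0.019), where 3.08% of all genes did so. There 1 fell (Mrpl30, -0.46, adjusted p = 0.032), where 2.77% of all genes did so. The cytosolic genes had -0.52 in the same fit, and the difference between these sets was not tested.

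The authors' deposited table, made with settings not given in the sources used here, also called 0 of these genes. Of the 88 genes with an adjusted p there, 0 were below 0.05, where 2.49% of all genes were lower and 5.08% higher. The lowest adjusted p in the authors' deposited table was 0.059, for Rpl5 with a log2 fold change of -0.48. The median log2 fold change of the genes there was -0.21.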

How the data were processed

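RNA was extracted from the cells, and the groups used here hold 3 acoustics-off and 3 acoustics-on libraries. The labels conflict on the RNA: the protocol names an rRNA depletion kit and the molecule field polyA RNA. The submitters' processing notes list DESeq2 1.38.2, Salmon 1.4.0, STAR 2.7.11 and Trim Galore 0.6.8 with the build GRCm38, settings not given in the sources used here. An FPKM table of the libraries was deposited by the authors. Their deposited comparison holds, per the file headers, a mean normalised count (a signal averaged over libraries), a log2 fold change and its error, a score (the test statistic), and p-values, raw and adjusted.

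The members and lists were chosen with earlier results of these data known. The files held no counts; 57.6% to 66.8% of low values (under 15) came within 0.05 of a whole number of reads, so reads were not recovered. limma 3.58.1 (R 4.3.3, trended robust prior, no replicate term) was run on log2(FPKM + 1) for genes with at least 0.5 FPKM in at least 3 libraries, with Benjamini-Hochberg adjustment over all genes. The length correction divided a loess trend (span 0.5) of each library, against the acoustics-off mean, on the longest GENCODE M21 protein-coding transcript out of FPKM. The test was checked on simulated data. Genes were named by a fixed rule: the largest differences each way, the highest and lowest levels, the smallest p, those furthest from the median, and chosen roles and paralogs. Others, such as Rpl30, Rps15a and Rps20, were named for their values in particular fits after these were seen. Rpl28 and Rpl38 were added by choice to the printed start windows. Alternatives were other pseudocounts, filters, scalings, a replicate term, no robust prior and each library left out. Corrections with GC content, with effective length, without the ribosomal protein genes, with a library left out, with pseudogene rows added and for paralog shares were chosen after seeing the data. Rpl10l, Rpl39l and Rps4l were not analysed here, and some members are not reported here by name.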

Additional observations from a re-analysis of the deposited data

How the results depend on the processing

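As deposited, 0 of the genes passed in either direction with another pseudocount, filter or scaling, with a replicate block (0 called, median -0.25), without the robust prior, and with pseudogene rows added. The median difference kept its sign throughout, from -0.47 to -0.02 with a library left out and -0.13 with quantile normalization. Correlations of deviations from the group means were -0.07, -0.02 and -0.00 between same-numbered libraries. Between differently numbered libraries they ran from -0.12 to 0.12. With 3 libraries per group, these values cannot show whether the numbers pair the libraries. The count of genes that fell was 40 with the length correction, 42 with GC content added, 52 with effective length, 46 with the trend fitted without these genes and 41 with pseudogene rows added. It was 67, 55 and 12 with the correction and without acoustics-on replicate 1, 2 or 3, and 0 to 2 with a library left out and no correction. Leaving out a library moved the difference in share from -5.25 to -2.14 percentage points.

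Rpl22l1 changed sign to -0.065 with quantile normalization. With the length correction it was -0.21, with GC content -0.22, with effective length -0.21, without these genes in the trend -0.28, with pseudogene rows -0.22, and without acoustics-on replicate 1, 2 or 3 as well -0.26, -0.20 and -0.18. Rpl36al was -0.11, -0.11, -0.14, -0.12 and -0.11 under the same 5 corrections, and -0.26 and -0.076 without replicate 1 or 2. Quantile normalization gave 0.12 for Rpl27, 0.14 for Rpl41, 0.18 for Rplp1, 0.15 for Rps14 and 0.026 for Rpsa. Rplp1 was 0.0126 with median ratio scaling and 0.0114 with that scaling set without these genes. With the correction, Rpl7l1 was 0.0565 without replicate 3 and Rps19bp1 -0.0123 without replicate 1. With each library left out in turn and no correction, the difference ranged from -0.41 to 0.074 for Rpl11, -0.43 to 0.039 for Rpl22, -0.18 to 0.32 for Rpl22l1, -0.27 to 0.18 for Rpl27, -0.50 to 0.033 for Rpl32, -0.14 to 0.39 for Rpl36al, -0.40 to 0.31 for Rpl41, -0.12 to 0.10 for Rpl7l1, -0.31 to 0.042 for Rplp0, -0.33 to 0.27 for Rplp1, -0.51 to 0.27 for Rplp2, -0.27 to 0.027 for Rps12, -0.29 to 0.27 for Rps14, -0.52 to 0.013 for Rps19, -0.48 to 0.28 for Rps2 and -0.36 to 0.15 for Rpsa. The causes were not tested.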
